A study of Homo sapiens with 4 samples.

Results

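The 56 genes described here encode developmental transcription factors of the homeobox and PAX families outside the HOX clusters, and they were taken from all genes that a probe of the array could be tied to. A member was a gene on a fixed list of symbols, and its probes were those whose RefSeq accession led to that symbol. The list was chosen with earlier results of these data known, so shares of members set beside all genes are descriptions and no independent test. All 56 had a probe, with 67 probes between them, out of 19483 genes named on the array. MeTA-array analysis was performed on TR9-MeTA14 and TR15-MeTA5, a pair of stably transfected derivatives of LNCaP, a prostate cancer cell line that keeps luminal and androgen-responsive features. Both lines carry the Tet repressor (TR9 and TR15 are its parental transfectants) and a tetracycline-regulated construct for NFkB (AD)-MBD, the activation domain of NFkB joined to a methyl-CpG binding domain. RNA came from cells given tetracycline for 4 days (+Tet) or not given it (-Tet), which makes 4 arrays with 1 array per condition. The untreated cells therefore carry the same repressor and construct as the treated ones, and no array here holds tetracycline-treated cells without the construct, so an effect of the drug and an effect of the induced protein cannot be told apart. Each line descends from its own transfection, and with 1 array per condition the differences in signal have no replicate check within a line.

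Homeobox proteins bind DNA through a homeodomain, and PAX proteins bind it through a paired domain that some of them combine with a homeodomain. They set the identity of tissues and segments in the embryo, and in most adult cells the genes of other lineages stay silent, often under Polycomb repression, with promoters rich in the dinucleotide CG. In tumours such promoters are a common place of gain in DNA methylation, which is why this gene class is of interest for a protein that carries an activation domain to methylated CG sites. No methylation was measured on these arrays.

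The density of CG dinucleotides differs widely between promoters of these genes, and 4 are shown so that it can be seen. They are RefSeq sequences on GRCh38.p14, 300 bases long, from 250 bases before the transcription start to 50 after it, and every CG is in capitals. CDX2, GBX2 and IRX2 had the largest smaller change of the 2 lines among members with an entry. OTX2 had the fewest CG dinucleotides of any member entry and was chosen after that was seen. The CDX2 window lies at chr13:27969266-27969565, the GBX2 window at chr2:236168337-236168636, the IRX2 window at chr5:2751628-2751927 and the OTX2 window at chr14:56810430-56810729, all on the minus strand.
CDX2: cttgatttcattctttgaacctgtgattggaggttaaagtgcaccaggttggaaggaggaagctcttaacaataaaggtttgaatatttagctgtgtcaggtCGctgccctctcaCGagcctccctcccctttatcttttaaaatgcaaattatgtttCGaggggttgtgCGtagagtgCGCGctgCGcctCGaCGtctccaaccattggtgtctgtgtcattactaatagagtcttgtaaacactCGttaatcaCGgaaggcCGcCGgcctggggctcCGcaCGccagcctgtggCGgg
GBX2: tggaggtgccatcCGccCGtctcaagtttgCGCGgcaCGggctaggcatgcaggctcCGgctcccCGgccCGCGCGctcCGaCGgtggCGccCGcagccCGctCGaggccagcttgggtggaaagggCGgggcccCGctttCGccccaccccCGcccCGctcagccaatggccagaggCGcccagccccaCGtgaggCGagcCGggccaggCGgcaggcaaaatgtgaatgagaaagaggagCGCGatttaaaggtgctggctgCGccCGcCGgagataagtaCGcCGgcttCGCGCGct
IRX2: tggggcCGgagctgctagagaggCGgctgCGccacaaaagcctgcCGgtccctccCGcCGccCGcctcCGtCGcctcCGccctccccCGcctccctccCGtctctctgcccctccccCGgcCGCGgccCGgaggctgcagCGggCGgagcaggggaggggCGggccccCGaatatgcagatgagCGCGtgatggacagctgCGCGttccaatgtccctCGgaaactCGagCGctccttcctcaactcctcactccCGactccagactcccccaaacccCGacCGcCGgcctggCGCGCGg
OTX2: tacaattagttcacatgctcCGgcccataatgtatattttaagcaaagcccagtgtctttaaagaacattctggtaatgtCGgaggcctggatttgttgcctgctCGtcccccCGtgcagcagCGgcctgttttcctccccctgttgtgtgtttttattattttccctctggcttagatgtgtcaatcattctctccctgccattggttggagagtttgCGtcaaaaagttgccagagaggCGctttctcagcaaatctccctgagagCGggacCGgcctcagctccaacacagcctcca
The windows hold 16, 36, 34 and 9 CG dinucleotides in this order. Of 15841 protein-coding promoters of the same length, 64.0% held at least as many as CDX2, 16.9% as GBX2, 20.8% as IRX2 and 74.7% as OTX2. CDX2, GBX2 and IRX2 were all higher with tetracycline in both lines, and OTX2 was not well above background on any array. Other entries had the reverse order. PAX2, with 14 CG dinucleotides, was higher in both lines, and ISL1, with 36, was not well above background on any array. A link between CG content and change was not tested. EN2, whose signal differed less than 2-fold between the arrays of each line, had the densest window of the member entries, with 50 CG dinucleotides (1.69% of promoters had as many). Entries were found for 39 of the 56 genes (69.6%), too few for a comparison of CG content over the whole set.

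Signals below are Agilent processed signals, a background-subtracted intensity in arbitrary units, as measured and before scaling. Folds were taken after each array was divided by the signal at its 75th percentile, which was 617, 777, 366.5 and 542 on TR9-MeTA14 -Tet, TR9-MeTA14 +Tet, TR15-MeTA5 -Tet and TR15-MeTA5 +Tet. A probe counted as on where Feature Extraction marked it well above background, and between 20560 and 24217 of 34127 probes were on per array. The lowest signal with that mark lay between 13.9 and 19.2. Where the dimmer array was not on, the fold is a lower bound, written "at least". The brightest probe of a gene stood for it, a call needed a difference of 2-fold, and repeat spots gave an SD of 0.0862 for a log2 ratio, which covers the spread within an array only. The number of arrays limits the precision of every value. Fewer cells that express a gene and less RNA per cell cannot be told apart in bulk RNA.

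Before tetracycline, 28 of the 56 members were off in both lines, against 27.1% of all named genes. Of these 28, 12 were on in both lines with tetracycline (42.9%), against 10.9% of the 5282 genes that were off on both untreated arrays. Another 12 members had no probe on in any of the 4 arrays, and 25 had a probe on in every one.

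In TR9-MeTA14, 28 of 39 members compared were at least 2-fold higher with tetracycline, where 16.8% of all genes compared were. In TR15-MeTA5 it was 30 of 42, where 9.78% of all genes were. No member was 2-fold lower in either line, although 15.1% of genes were lower in TR9-MeTA14 and 2.21% in TR15-MeTA5. A gene that is on only with tetracycline enters these counts through its high array, and 14 of the folds in each line are bounds of that kind. On the 25 members whose probe was on in all 4 arrays, 18 were higher in TR9-MeTA14, beside 13.7% of 12690 genes, and 17 in TR15-MeTA5, beside 6.36%. Their median log2 fold change was 2.13 and 1.56, beside -0.14 and -0.19 over all genes on in all 4 arrays.

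Both lines showed the increase for 24 members of the 38 that could be compared in both, where 8.21% of all such genes did. The count was also taken on other bases. Of all 56 members, 24 were higher in both lines, beside 5.89% of all 19483 genes. No filter on signal sets this base, but the list was chosen with earlier results of these data known. Of the 25 on in all 4 arrays 16 were higher in both lines, beside 5.51% of 12690 genes. That base still needs the treated arrays to be on, so a gene that falls to background with tetracycline leaves it. A further 4 members were called in TR9-MeTA14 and not in TR15-MeTA5, 6 were called in TR15-MeTA5 and not in TR9-MeTA14, 8 were compared in both lines without a call, PAX8 was compared in TR15-MeTA5 alone without a call, and 13 had no fold in either line. A missing call is not a change shown to be under 2-fold where the fold is a lower bound or cannot be given, as for SIX6 and IRX1 in TR9-MeTA14, whose plain ratios of background-level to treated signals were 2.31 and 2.33 on the log2 scale.

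**Figure D1:**
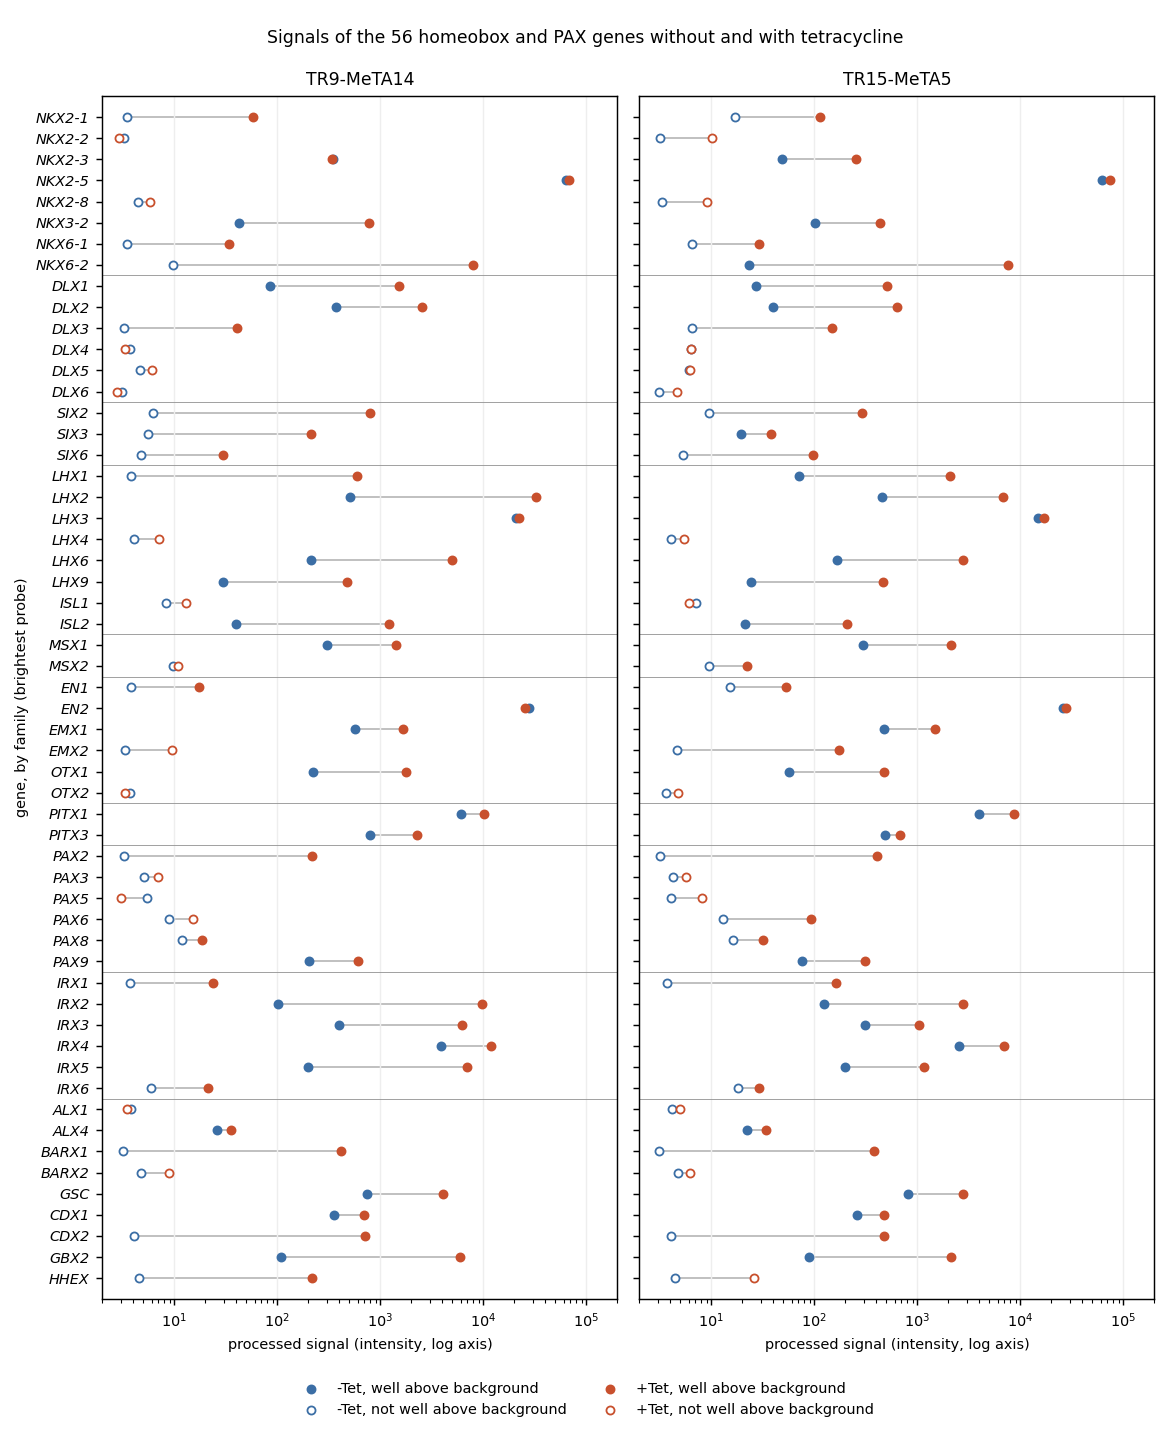
Processed signal (intensity, log axis) of the brightest probe of each of the 56 genes, grouped by family, with TR9-MeTA14 on the left and TR15-MeTA5 on the right. Blue points are -Tet and red points +Tet, with open points not well above background, and most lines that join the arrays of a gene run to a higher signal with tetracycline, whereas NKX2-5, LHX3 and EN2 read at least 14907 on all 4 arrays.

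The plot of signals by family shows that members ranged from signals at the floor of the array to 74712 and that every family held at least 1 gene called in both lines except PITX. The families are taken in turn below, with the signals of -Tet and then +Tet for each line. Where treated arrays are said to lie above both untreated ones, the share of all genes with that order was not taken.

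NKX6-2, a repressor of the NKX6 pair that acts in neural tube patterning and in myelinating glia, had the largest change of the 56. Its signal was 9.70 and 7980 in TR9-MeTA14 and 23.4 and 7542 in TR15-MeTA5. The untreated TR9-MeTA14 array was not on, and both treated arrays lay far above both untreated ones. The increase was at least 409.9-fold in TR9-MeTA14 and 218-fold in TR15-MeTA5, and by the smaller of its 2 changes NKX6-2 stood at rank 5 of 13970 genes. NKX6-2 was known to be among the largest increases when the members were chosen, so its rank is a description only. NKX6-1, its partner in motor neuron and beta cell development, was off without tetracycline and read 33.9 and 29.0 with it, which leaves bounds of at least 1.74-fold and 1.27-fold and no call.

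NKX3-2, a factor of the axial skeleton and jaw joint, read 42.7 and 782 in TR9-MeTA14 and 100.4 and 438 in TR15-MeTA5, increases of 14.5-fold and 2.95-fold. NKX2-1, which specifies thyroid and lung, was off untreated at 3.49 and 17.0 and on with tetracycline at 57.8 and 112.5, at least 2.97-fold and 4.49-fold higher. NKX2-3, a factor of gut and spleen mesenchyme, read 346 and 342 in TR9-MeTA14, 1.27-fold lower after scaling and no call, and went from 48.0 to 253 in TR15-MeTA5, a 3.57-fold increase called in that line. For NKX2-3 the untreated array of TR15-MeTA5 was the lowest of the 4. NKX2-5, known from the heart, read between 62232 and 74712 on all 4 arrays. It has a single probe here, so no other probe can check that the gene is on. NKX2-2 and NKX2-8 were off on all 4.

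Among the DLX genes, which pattern the jaw, the limb and forebrain interneurons, 3 of 6 were higher in both lines. DLX1 read 84.2 and 1529 in TR9-MeTA14 and 27.0 and 505.5 in TR15-MeTA5, which is 14.4-fold and 12.7-fold. DLX2 read 371.5 and 2534 in TR9-MeTA14 and 39.6 and 631 in TR15-MeTA5, which is 5.42-fold and 10.8-fold. Treated and untreated arrays did not overlap for either gene. DLX3, a regulator of hair, tooth and placenta, was off untreated and at least 2.10-fold and 6.48-fold higher. DLX4, DLX5 and DLX6 were off on all 4 arrays.

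SIX2, SIX3 and SIX6 are vertebrate relatives of the fly gene sine oculis and act in a network with EYA and PAX proteins. SIX2, which maintains nephron progenitors, was off untreated at 6.23 and 9.41 and read 796 and 292 with tetracycline, at least 40.9-fold and 12.8-fold higher. SIX3, a forebrain and eye factor, went from 5.58, not on, to 212 in TR9-MeTA14, at least 10.9-fold, while in TR15-MeTA5 it read 19.3 and 38.2, which is 1.34-fold after scaling. SIX6, of eye and pituitary, showed the other order. It read 4.75 and 29.8 in TR9-MeTA14 and 5.30 and 97.9 in TR15-MeTA5, at least 1.53-fold and at least 4.29-fold higher, with the untreated arrays off.

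The LIM homeobox group had the most calls, with 5 of 8 members higher in both lines. LHX1, which organises the head and kidney, read 3.76 and 588 in TR9-MeTA14 and 70.2 and 2067 in TR15-MeTA5, at least 30.2-fold and 19.9-fold higher. LHX2, needed for eye, forebrain and hair follicle stem cells, read 509 and 32109 in TR9-MeTA14 and 452 and 6711 in TR15-MeTA5, 50.2-fold and 10.0-fold. LHX6, a factor of cortical interneurons, read 209.6 and 4941 in TR9-MeTA14 and 165 and 2785 in TR15-MeTA5, 18.7-fold and 11.4-fold. For all 3 genes the treated arrays lay above both untreated arrays.

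LHX9, a gonadal and limb factor, read 29.9 and 474 in TR9-MeTA14 and 24.1 and 462 in TR15-MeTA5, increases of 12.6-fold and 12.9-fold that differed little between the lines. A dimmer LHX9 probe was off on both untreated arrays and gave bounds of at least 1.08-fold and 3.69-fold. ISL2, a motor neuron gene, read 40.0 and 1211 in TR9-MeTA14 and 21.0 and 208 in TR15-MeTA5, 24.1-fold and 6.70-fold. ISL1 and LHX4 were off on all 4 arrays. LHX3, a pituitary and motor neuron gene, read between 14907 and 22169 on 1 probe, A_33_P3223678, while its other probe, A_23_P9496, was off on all 4 arrays, so the pair disagree on whether the gene is on, and neither changed 2-fold.

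MSX1, which acts in craniofacial and limb mesenchyme, read 303 and 1431 in TR9-MeTA14 and 299 and 2101 in TR15-MeTA5, 3.75-fold and 4.76-fold. MSX2 was on only in TR15-MeTA5 +Tet, at 22.1, with no fold. OTX1, a forebrain gene, read 222 and 1769 in TR9-MeTA14 and 57.0 and 475 in TR15-MeTA5, 6.33-fold and 5.64-fold. The second OTX1 probe was off untreated and gave bounds of at least 1.96-fold and 1.17-fold. EMX1, of the dorsal cortex, was 2.33-fold and 2.12-fold higher. EMX2 was called in TR15-MeTA5, where it went from 4.59, not on, to 172, at least 7.52-fold, and it was off on both arrays of TR9-MeTA14 at 3.31 and 9.55. EN1, a midbrain and limb gene, read 3.79 and 17.1 in TR9-MeTA14, with no fold, and 15.3 and 53.5 in TR15-MeTA5, at least 2.35-fold. EN2 read between 25369 and 27698 on all 4 arrays, also on a single probe with no other to check it. OTX2 was off throughout.

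PITX1, a hindlimb and pituitary gene, was on everywhere, with signals from 3984 to 10128, and its folds of 1.32 and 1.46 made no call. Its second probe gave 1.38-fold and 1.36-fold. PITX3, a lens and dopamine neuron gene, read 797 and 2285 in TR9-MeTA14, 2.28-fold, and 481 and 685 in TR15-MeTA5, where the scaled values differed by 0.05 on the log2 scale.

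Of the 6 PAX genes, PAX2 and PAX9 were higher in both lines. PAX2, which drives kidney and genital tract development, was off untreated at 3.23 and 3.19 and read 215 and 402 with tetracycline, at least 11.1-fold and 17.6-fold higher. A second PAX2 probe, for another transcript, gave no fold in either line and read no higher than 20.4. PAX9, a tooth and thymus gene, read 203 and 606 in TR9-MeTA14 and 75.1 and 313 in TR15-MeTA5, 2.37-fold and 2.82-fold, and its second probe gave 3.13-fold and 3.77-fold. PAX6, central to eye and pancreas, was off on 3 arrays at 8.84, 15 and 12.9 and read 92.0 on TR15-MeTA5 +Tet, at least 4.03-fold. A second PAX6 probe also came on only there, at least 5.68-fold, and another was off on all 4. PAX8 stayed under 31.6 with a bound of at least 1.31-fold in TR15-MeTA5, and PAX3 and PAX5 were off.

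The Iroquois genes, IRX1 to IRX6, pattern nervous system, heart and limb, and 3 of them were higher in both lines. IRX2 read 102 and 9641 in TR9-MeTA14 and 123 and 2782 in TR15-MeTA5, 74.9-fold and 15.3-fold. Its second probe gave at least 115.8-fold and 19.4-fold. IRX5 read 200.1 and 6935 in TR9-MeTA14 and 198 and 1170.0 in TR15-MeTA5, 27.5-fold and 3.99-fold, and IRX3 was 12.4-fold and 2.24-fold higher. After scaling, IRX3 and IRX5 were 4.15-fold and 4.14-fold lower in treated TR15-MeTA5 than in treated TR9-MeTA14, while untreated they were 1.33-fold and 1.67-fold higher in TR15-MeTA5. IRX1 was off untreated at 3.73 and 3.75 and read 23.5 and 163 with tetracycline, at least 1.21-fold and 7.15-fold higher. IRX4 read 3856 and 11713 in TR9-MeTA14 and 2510 and 6966 in TR15-MeTA5, 2.41-fold and 1.88-fold, so its call in TR9-MeTA14 and not in TR15-MeTA5 rests on values that lie on either side of 2-fold. IRX6 gave bounds of at least 1.10-fold and 1.08-fold.

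Among the remaining genes, CDX2, a master regulator of intestine, was off untreated at 4.05 and 4.07 and read 713 and 475 with tetracycline, at least 36.6-fold and 20.8-fold higher. BARX1, of stomach mesenchyme and molar teeth, was off at 3.16 and 3.13 and read 416 and 381, at least 21.4-fold and 16.7-fold higher. GBX2, which positions the midbrain-hindbrain boundary, was on untreated and read 109 and 5896 in TR9-MeTA14 and 87.8 and 2142 in TR15-MeTA5, 43.1-fold and 16.5-fold. In these 3 genes every treated array exceeded every untreated array. GSC, the gene of the Spemann organizer, was 4.37-fold and 2.32-fold higher. HHEX, a liver and blood progenitor gene, went from 4.52, not on, to 219 in TR9-MeTA14, at least 11.2-fold, and was off on both arrays of TR15-MeTA5 at 4.48 and 25.8. CDX1 read 351 and 694 in TR9-MeTA14 and 260.5 and 475 in TR15-MeTA5, 1.57-fold and 1.23-fold. The dimmer CDX1 probe was off untreated and gave at least 5.54-fold and 1.76-fold, so its 2 probes disagree on the call in TR9-MeTA14. ALX4 differed by 1.09-fold and 1.03-fold, and ALX1 and BARX2 were off.

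The lines were set side by side on the 25 members measured on all 4 arrays. Their log2 fold changes had the same sign in 23, and the increase was larger in TR9-MeTA14 in 16 and in TR15-MeTA5 in 6. Increases were also more frequent in TR9-MeTA14 over all genes on in all 4 arrays, with 13.7% called there and 6.36% in TR15-MeTA5. Across the 25 members, which share the arrays and are not independent replicates, Pearson's r between the lines was 0.824 and Spearman's rho 0.826. These are given as a description, and neither they nor the counts of sign and size were taken over all genes. The scatter of changes in the 2 lines shows NKX6-2 by itself at the top and a group above 3 on the log2 scale in both lines. That group includes LHX1, LHX2, LHX6, LHX9, DLX1, IRX2, SIX2, PAX2, BARX1, CDX2 and GBX2. SIX3 and IRX1 lie far from the diagonal on opposite sides. IRX1 is plotted at lower bounds in both lines, so its place does not measure a difference between them. SIX3 is a lower bound in TR9-MeTA14 only.

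**Figure D2:**
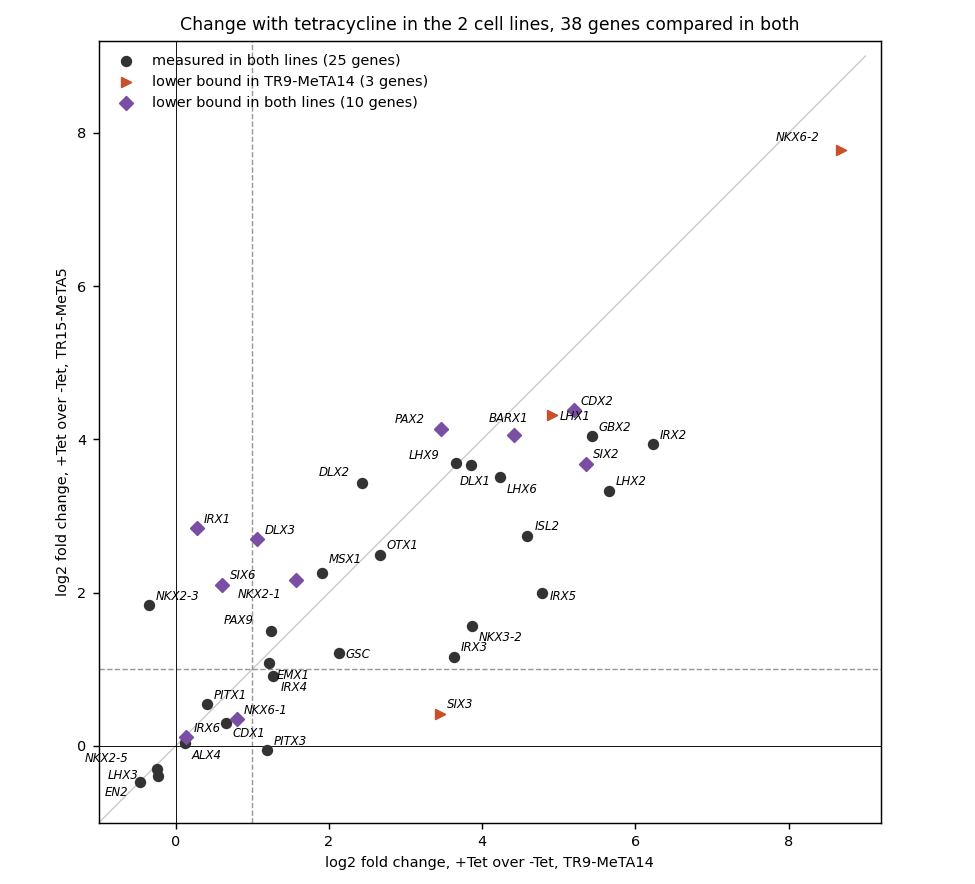
Log2 fold change of +Tet over -Tet in TR9-MeTA14 (horizontal) against TR15-MeTA5 (vertical) for the 38 members compared in both lines, with the dashed lines at 2-fold and the grey diagonal at equal change. Black circles are measured values, red triangles lower bounds in TR9-MeTA14 and purple diamonds lower bounds in both, and 24 genes lie above and to the right of both dashed lines.

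A limma fit with cell line as a block took the lines as 2 replicates of the treatment, with 1 residual degree of freedom. It tested 40 members and found 15 higher and 0 lower at an adjusted p under 0.05, while 3.22% of 14458 genes were higher and 0.0138% lower. At an unadjusted p under 0.05 it had 29 members, beside 21.5% of genes. A probe entered this fit when it was on in at least 2 arrays, so a member off on both untreated arrays entered only through the treated ones, with its background-level signal as measured, and of the 15 calls 8 were of members on in all 4 arrays. With the fit restricted to probes on in all 4 arrays, limma called 5 of 25 members, beside 1.2% of 12690 genes. They were DLX1 (3.76 ± 0.28 SE, adjusted p = 0.0256), LHX9 (3.67 ± 0.28, adjusted p = 0.0256), LHX6 (3.87 ± 0.31, adjusted p = 0.0277), GBX2 (4.74 ± 0.41, adjusted p = 0.0300) and OTX1 (2.58 ± 0.28, adjusted p = 0.0441). Members with a larger change in TR9-MeTA14 than in TR15-MeTA5 were among those that missed the threshold in the wider fit, such as LHX2 (4.49 ± 0.61, adjusted p = 0.05241), ISL2 (3.67 ± 0.53, adjusted p = 0.05713), IRX5 (3.39 ± 0.72, adjusted p = 0.127) and IRX3 (2.40 ± 0.65, adjusted p = 0.195). The difference between the lines in their response could not be tested with 4 arrays.

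The untreated lines themselves were compared for 28 members. TR15-MeTA5 was at least 2-fold higher than TR9-MeTA14 in 5, where 8.17% of genes were, and at least 2-fold lower in 3, where 5.19% were. LHX1 (at least 7.64-fold), NKX3-2 (3.96-fold), NKX6-2 (at least 2.54-fold), SIX3 (at least 2.10-fold) and IRX2 (2.03-fold) were higher in untreated TR15-MeTA5. DLX2 (5.58-fold), NKX2-3 (4.28-fold) and OTX1 (2.31-fold) were lower. The total of 8 depended on the processing. It was 3 with normexp and quantile normalization together, 5 where probes had to be on in all 4 arrays and 19 with no filter, and IRX2 lay close to 2-fold. Shares of all genes at these other settings are not given, so the counts describe the members alone. The genes lower in untreated TR15-MeTA5 include NKX2-3, for which the line with the lower start was the one called with tetracycline.

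Some members lie next to each other in the genome, and 7 such groups of 2 or 3 genes were read together. On the annotation used, no other protein-coding gene lies between the members of a group, except 1 between those of IRX1, IRX2 and IRX4 on chromosome 5. DLX1 and DLX2 on chromosome 2 were both higher in both lines, and DLX5 and DLX6 on chromosome 7 were both off on all arrays. The other groups were mixed in their calls. DLX3 was higher and its neighbour DLX4 on chromosome 17 was off. On chromosome 16, IRX3 and IRX5 were higher in both lines, with the larger change in TR9-MeTA14. IRX6 was not called, but its values close to 1 are lower bounds and do not show that its change was small. IRX2 was higher in both lines, IRX1 was called in TR15-MeTA5 and IRX4 in TR9-MeTA14. On chromosome 14, NKX2-1 and PAX9 were higher and NKX2-8, in the same group, was off. SIX2 and SIX3, also on chromosome 2, shared a call in TR9-MeTA14 only. The number of groups is too small for a test.

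**Figure D3:**
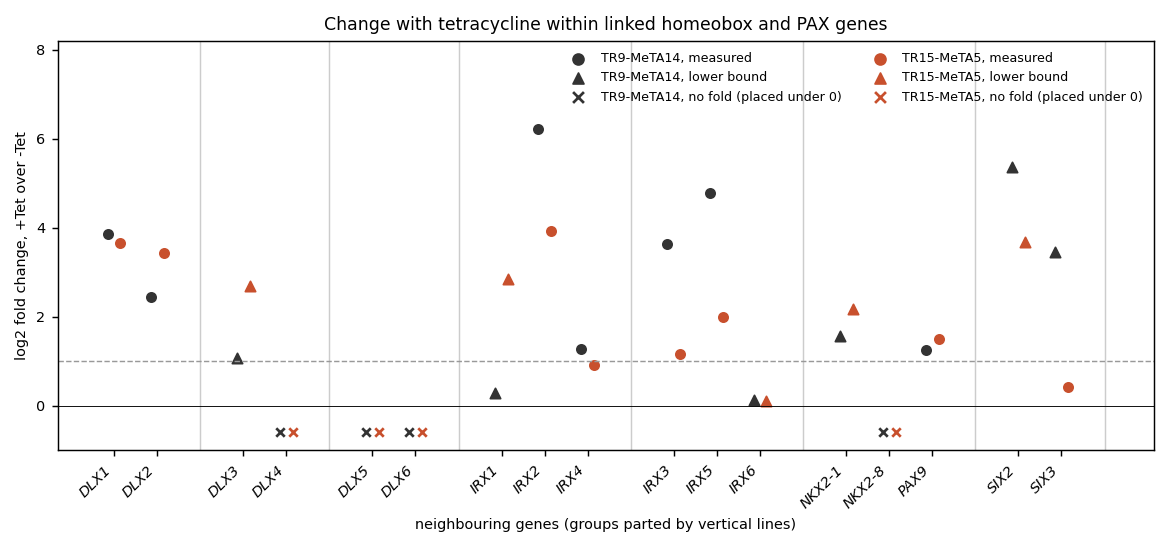
Log2 fold change of +Tet over -Tet for neighbouring members, with groups parted by vertical lines, TR9-MeTA14 in black and TR15-MeTA5 in red. Circles are measured, triangles are lower bounds, crosses under 0 mark genes with no fold, and the dashed line is 2-fold, with the DLX1 and DLX2 points all above it and DLX5 and DLX6 all without a fold.

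Other homeobox genes outside HOX were listed as well, and 68 of 70 had a probe. Both lines had a 2-fold increase for 16 of the 41 that could be compared (39.0%), where 8.21% of all such genes did. Of the 32 that were off on both untreated arrays, 8 came on in both lines (25.0%), where 10.9% of all such genes did. limma called 7 of 43 higher, beside 3.22% of all genes tested, and 0 lower. Frequent increases were thus not particular to the 56 members. PRRX2, a mesenchymal factor, had the largest change on this list. It went from 26.9 to 3192 in TR9-MeTA14 and from 4.79, not on, to 2141 in TR15-MeTA5, which is 6.56 and at least 6.55 on the log2 scale. VAX2, of the ventral eye, was 5.19 and 3.37 higher on the log2 scale, and TLX3 and POU4F1, of sensory neurons, came on in both lines with bounds between 2.66 and 3.01. RAX, an eye field gene, was the only gene of the list called lower, by 1.30 on the log2 scale in TR9-MeTA14.

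Partner proteins of these factors were listed too. Among 24 cofactor genes with a probe (EYA, DACH, TLE, LDB, LMO, PBX, MEIS and PKNOX), 3 of 17 compared were higher in both lines, where 8.21% of all such genes were. The 3 were LMO1, PBX3 and PBX4, with log2 fold changes of 1.88, 2.17 and 2.75 in TR9-MeTA14 and 2.43, 1.23 and 2.22 in TR15-MeTA5. DACH1 came on in TR9-MeTA14 alone (at least 3.35 on the log2 scale), and LMO2 fell there by at least 3.33. The PRC2 genes encode the Polycomb complex that methylates histone H3 at developmental promoters. All 10 measured were on in all arrays. None was called in both lines, where 8.21% of all such genes were higher, and 10 genes are too few to tell these apart. In TR9-MeTA14 PHF19 was higher by 1.93 and EZH2, the catalytic subunit, fell by 1.34 on the log2 scale. This is 1 gene of 10 in each direction, beside 16.8% of all genes compared that were higher there and 15.1% that were lower. The log2 fold changes of PHF19 and EZH2 in TR15-MeTA5 were 0.20 and -0.59. The differences between the lists were not tested.

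**Figure D4:**
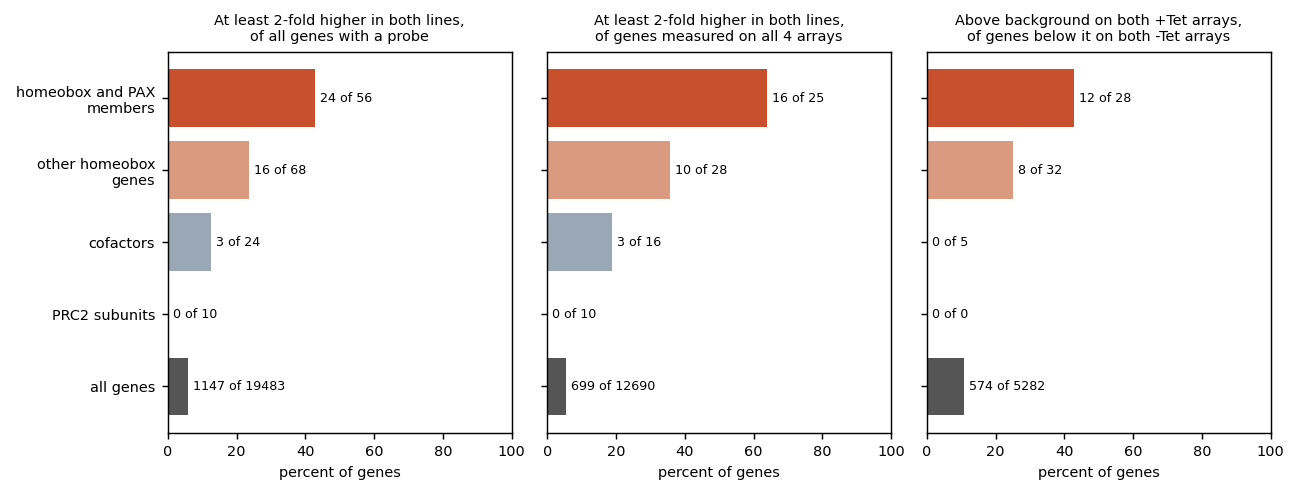
Percent of genes at least 2-fold higher in both lines among all genes with a probe (left) and among genes on in all 4 arrays (middle), and percent of genes off on both -Tet arrays that were on in both +Tet arrays (right), for the members, 3 other gene lists and all genes. The numbers beside the bars are the counts, with 24 of 56, 16 of 25 and 12 of 28 for the members.

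The tissue label was checked on markers of prostate epithelium. All 8 luminal markers were on in all 4 arrays, with KLK3 between 47017 and 144067. Basal markers KRT5, KRT14 and TP63 were off on all 4, and KRT15 read between 97.9 and 140.6. With tetracycline 4 of the 8 luminal markers were called lower in TR9-MeTA14, where 15.1% of all genes compared were. These were KLK3, KLK2, TMPRSS2 and HOXB13, with log2 fold changes of -1.95, -4.004, -3.03 and -1.65. The other 4 made no call there, with -0.68 for FOLH1, -0.86 for KRT18, -0.70 for FOXA1 and 0.24 for KRT8. None of the 8 was called in TR15-MeTA5, where 2.21% of all genes compared were lower. All 8 log2 fold changes there were negative, and that of KLK2, at -0.98, lay close to the cut. The list's median log2 fold change was -1.25 in TR9-MeTA14 and -0.65 in TR15-MeTA5, beside -0.14 and -0.19 over all genes on in all 4 arrays. These shifts stood beside the larger increases of 16 of 25 members in TR9-MeTA14, and their part in them was not tested.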

How the data were processed

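Expression was read on 1-colour Agilent arrays of the 4x44K format, 1 array for each combination of line and treatment, all on 1 slide, so a batch could not be tested. The authors extracted images with Agilent Feature Extraction (10.7.3.1 in the file headers, 9.5.1 in the submitters' processing notes) and deposited intensities. The processed signal intensity is background-subtracted and not normalized between arrays, and the deposited series table equals it on all 44495 rows.

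Here, between 255 and 344 outlier spots per array were left out, log2 signals were averaged per probe, and the 75th percentile over non-control probes was subtracted. RefSeq accessions named 25422 of 34127 probes (74.5%) on a GRCh38.p14 table. Fold needed the brighter array well above background, and calls needed 2-fold. With 1 array per group there is no test within a line. limma 3.58.1 in R 4.3.3 (lmFit, eBayes with trend, cell line as block, Benjamini-Hochberg) tested both lines together over the probes that were on in 2 or more arrays. The fit was first run on simulated signals with the same change added in both lines, which does not cover lines that respond differently. Python 3.11.15, numpy 2.4.6 and pandas 2.3.3 did the rest. Whether the arrays came from separate cultures is not stated, so the spread may be technical.

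The members and lists were chosen with earlier results of these data known. Genes given in full are up to 20 members higher in both lines, ranked by the smaller change, and up to 10 called in 1 line or lower. Probes of NKX2-5, LHX3, EN2, PITX1 and CDX1, the second probes and genes of other lists were named after their values were seen. Alternatives covered scaling, background correction, filters, thresholds, outlier spots, probe choice and the model.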

Additional observations from a re-analysis of the deposited data

Results flagged for a closer look

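NKX2-3 had log2 fold changes of opposite sign in the 2 lines, of which only that in TR15-MeTA5 passed 2-fold. Its log2 fold change with tetracycline was -0.349 in TR9-MeTA14, which is no call, and 1.835 in TR15-MeTA5. The difference was not tested, since each condition has 1 array. In untreated cells its signal was 4.28-fold lower in TR15-MeTA5 than in TR9-MeTA14, and the treated arrays differed by 1.06-fold.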

How the results depend on the processing

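The count of 24 members higher in both lines ranged from 16 to 30. It was 23 with quantile normalization (beside 7.93% of all genes compared), 24 with median scaling (beside 8.37%) and 25 with spike-in scaling (beside 10.9%). With normexp and quantile normalization it was 21 (beside 5.56%). It was 16 where a probe had to be well above background on all 4 arrays (beside 5.51%) and 30 with no filter and plain ratios (beside 7.66%). That filter on all 4 arrays took the members higher in TR9-MeTA14 from 28 to 18 and in TR15-MeTA5 from 30 to 17, and the limma calls from 15 to 5. Of the 15, 7 were of members with an untreated array off, which leave the test, and the cause of the loss of the other 3 was not tested. With no filter limma called 23 members, and 1 member was 2-fold lower in TR9-MeTA14. The count of members 2-fold apart between the untreated lines was 8 and became 6 with quantile normalization, 3 with normexp and quantile normalization together, 5 with the filter on all 4 arrays, 19 with no filter, 4 at 3-fold and 15 at 1.5-fold. Shares of all genes are not given for these changed counts, nor for the limma counts with no filter or without the cell line block. No value changed sign among those called. Spike-in scaling moved the median log2 fold change over all signals on in all 4 arrays. It went from -0.19 to 0.18 in TR15-MeTA5 and from -0.15 to -0.05 in TR9-MeTA14. That median is not the one per gene given above, which was -0.14 in TR9-MeTA14. Spike-in scaling also moved all 64 single log2 values by more than the spread between spots. normexp with quantile normalization moved 56 of them, and for NKX6-2 it gave 6.06 and 6.03 in place of 8.68 and 7.77. Naming probes by gene name alone was not run, because names were read only through accessions. Treated and untreated cells of a line are paired in limma by the cell line block, without which it called 11 members. No other pairing, by replicate number, could be made with 1 array per condition, and none could be left out. Signals near background limit what can be seen of the 12 members off on all arrays, which are not shown to be silent.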
